A study of Mus musculus with 9 samples.

Results

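Of 55536 genes measured in mouse leukemia cells, 38 (0.0684%) were on in the libraries labelled IRF7-/- c-kit+ and off in both groups of wild-type (WT) cells. They were chosen by level alone, with at least 5 TPM in each of the 3 labelled libraries and under 1 TPM in each of the 6 WT libraries. TPM is a transcript level scaled for transcript length and for the total of the library. Since these levels selected the genes, the gap between the labelled and the WT libraries is given below as a description, with no test.

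The cells were GFP+ acute myeloid leukemia cells driven by the MLL-AF9 fusion, which the study introduced by retrovirus into c-kit+ cells of WT or knockout donors. By the labels, all 3 groups had 3 bulk RNA-seq libraries (the study's text calls the assay a microarray) of cells sorted from the bone marrow of C57BL/6J recipients, which were 6 to 8 weeks old at transplantation, had received 1000000 leukemia cells each without irradiation, and were killed on day 18. WT c-kit- and WT c-kit+ cells had the genotype tag control with GFP overexpression, and the third group the tag IRF7-/- with GFP overexpression. C-kit is a stem cell factor receptor that marks the more primitive leukemia cells. The host marrow keeps its own blood cells in this model, and the labels do not say whether the libraries of a group came from separate mice, so p-values measure only the spread between these libraries, which may be technical.

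Irf7 itself did not follow the knockout label. It had 3.36 to 5.31 TPM in WT c-kit+ and 22.3 to 32.3 TPM in WT c-kit-. The labelled libraries 1, 2 and 3 had 12.8, 5.97 and 7.95 TPM. Each labelled library exceeded every WT c-kit+ library. The log2 fold change was 0.89 (standard error 0.27), with an adjusted p of 0.0321 in limma and 0.1 in a two-sided exact permutation test, which is the lowest possible with 3 against 3. The study describes an allele in which exons 2 and 3 are replaced, and a value per gene cannot show which exons were read. The study also describes its own checks of IRF7 by qRT-PCR and Western blot, which were not analysed here. Because of the Irf7 level the group is called the labelled libraries here, and every direction below rests on that label. Kit had 50.7 to 58.5 TPM in WT c-kit+, 70.3 to 85.7 TPM in the labelled libraries and 0.52 to 3.03 TPM in WT c-kit-. All 12 genes of a list of myeloid leukemia markers passed the filter on low values, with a summed level of 14427 to 19581 TPM in WT c-kit+ and 18011 to 23790 TPM in the labelled libraries. In WT c-kit- the list summed to 3685 to 4105 TPM. The 9 libraries summed to between 987468 and 992231 TPM and had 12845 to 13151 genes of at least 1 TPM. TPM keep no depth, so no counting error can be given.

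Most mammalian genes are silent in any one cell type. Genes reserved for liver, nerve, gut or germ cells are usually kept off in blood cells by the absence of their activators, by repressive chromatin and, at some starts, by DNA methylation. IRF7 is a transcription factor that switches on type I interferon genes after a virus is sensed, and it binds sites built on repeats of GAAA.

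The promoters of 4 of the 38 genes are shown first because they span the range of CpG content found among them, a feature that the choice of genes did not use. Each is the RefSeq window from 250 bases before to 50 bases after the annotated start on GRCm38.p6, written 5′ to 3′ on the strand of the gene, with each CpG dinucleotide in capitals. Xlr, the gene with the highest level, starts in chrX:53797657-53797956 (minus strand) with 7 CpG. Cyp2a5, a liver cytochrome P450, starts in chr7:26835089-26835388 (plus strand) with 2 CpG. Aldh1a7, an aldehyde dehydrogenase, starts in chr19:20727507-20727806 (minus strand) with 1 CpG, the fewest, and Sdk1, an adhesion molecule of retinal synapses, starts in chr5:141241284-141241583 (plus strand) with 54 CpG, the most.
Xlr: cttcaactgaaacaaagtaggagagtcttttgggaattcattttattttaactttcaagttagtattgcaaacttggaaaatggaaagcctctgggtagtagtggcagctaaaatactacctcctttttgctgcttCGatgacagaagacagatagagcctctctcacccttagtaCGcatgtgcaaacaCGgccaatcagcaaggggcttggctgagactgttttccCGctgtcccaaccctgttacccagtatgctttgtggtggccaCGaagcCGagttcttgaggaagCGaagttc
Cyp2a5: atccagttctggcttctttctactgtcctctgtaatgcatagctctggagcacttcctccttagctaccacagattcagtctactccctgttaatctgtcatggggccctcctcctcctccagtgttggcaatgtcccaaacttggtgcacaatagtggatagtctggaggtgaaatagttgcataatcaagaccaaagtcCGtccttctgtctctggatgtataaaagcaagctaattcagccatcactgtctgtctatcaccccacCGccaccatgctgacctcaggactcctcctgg
Aldh1a7: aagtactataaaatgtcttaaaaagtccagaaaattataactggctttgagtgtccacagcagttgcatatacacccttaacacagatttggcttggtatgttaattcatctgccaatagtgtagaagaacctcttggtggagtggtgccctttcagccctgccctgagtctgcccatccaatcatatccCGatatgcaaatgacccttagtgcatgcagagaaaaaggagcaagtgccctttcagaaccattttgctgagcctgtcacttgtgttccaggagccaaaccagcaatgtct
Sdk1: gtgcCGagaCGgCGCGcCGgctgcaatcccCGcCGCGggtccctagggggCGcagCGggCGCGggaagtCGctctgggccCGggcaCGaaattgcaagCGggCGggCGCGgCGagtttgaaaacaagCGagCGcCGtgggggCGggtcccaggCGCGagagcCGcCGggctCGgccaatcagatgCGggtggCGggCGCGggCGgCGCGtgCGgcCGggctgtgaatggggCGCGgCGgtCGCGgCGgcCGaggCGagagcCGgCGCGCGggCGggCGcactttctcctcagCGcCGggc

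The 38 genes spanned a wide range of levels. Their mean over the labelled libraries ran from 6.59 TPM for Pla2r1 to 148 TPM for Xlr, with a median of 11.3 TPM. A mean of at least 10 TPM was reached by 22 genes, and a mean over 20 TPM by 6. Summed over the 38, the level was 728, 611 and 746 TPM in the labelled libraries 1, 2 and 3, against 7.57, 8.36 and 8.43 TPM in WT c-kit+ and 4.49, 6.09 and 5.02 TPM in WT c-kit-. Xlr and Rps4l made up 34.3% of the summed mean in the labelled libraries. In bulk RNA a high level in a few cells cannot be told apart from a low level in all of them.

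**Figure D1:**
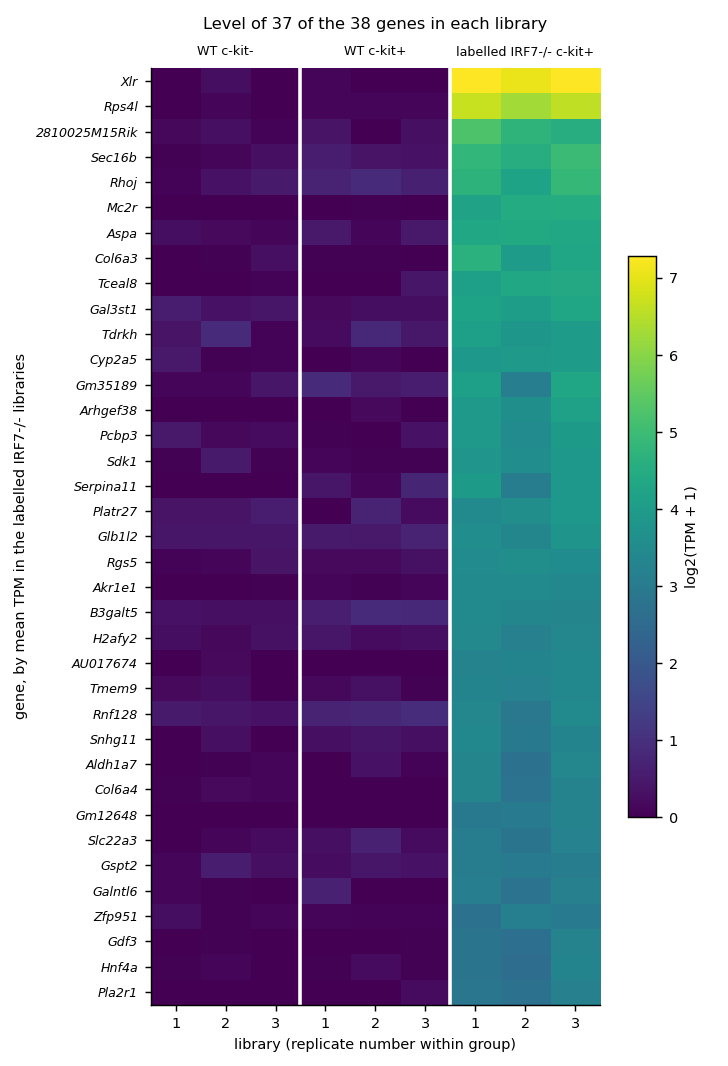
Level of 37 of the 38 genes (rows, by mean level in the labelled libraries) in each of the 9 libraries (columns, 3 per group), as log2(TPM + 1) by color. The 6 WT columns are dark throughout, since no gene exceeds 0.89 TPM there, and within the labelled group library 2 is the lowest for 26 of the 38 genes.

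In the usual comparison of groups, limma on log2(TPM + 1) called a gene that differed by 1 or more in log2 with a Benjamini-Hochberg adjusted p under 0.05. Genes entered with 1 TPM or more in any 3 of the 6 libraries. All 38 passed this filter and all 38 were called higher in the labelled libraries against WT c-kit+, where 6.30% of 13238 genes were called higher, and against WT c-kit-, where 8.40% of 13510 were. The choice of genes fixed both counts. Between the WT groups none could be tested, since all were under 1 TPM. The difference on the log2(TPM + 1) scale had a median of 3.32 (2.46 to 7.18) against WT c-kit+ and 3.39 (2.71 to 7.12) against WT c-kit-. Across all genes tested the medians were 0.12 and 0.03. Both comparisons share the labelled libraries.

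The same thresholds were applied to other patterns. There was 1 gene on in WT c-kit+ alone, 14 were on in WT c-kit- alone, and 15 were off in the labelled libraries alone and on in all 6 WT libraries. With the 2 c-kit+ groups taken by themselves, 60 genes were on in the labelled libraries and off in WT c-kit+, and 32 had the opposite pattern. Between the WT groups, 12 genes were on in WT c-kit+ and off in WT c-kit-, and 20 the reverse.

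Genes near the thresholds show how far the limits matter. Hnf4a was the closest inside the upper one, with a lowest labelled value of 5.06 TPM, and C230014O12Rik the closest outside, with 4.82, 4.68 and 5.94 TPM and at most 0.07 TPM in WT. Rnf128 was the closest inside the lower one, with at most 0.89 TPM in WT, and Gm32618 the closest outside, with at most 1.07 TPM in WT and 12.8, 9.52 and 14.2 TPM in the labelled libraries. Vill, a relative of villin, had 132, 119 and 146 TPM in the labelled libraries and stayed outside through 1 library, WT c-kit- replicate 1, which had 1.09 TPM. Nmral1 was left out by the same library, with 1.12 TPM there and 85.0, 78.2 and 73.1 TPM in the labelled libraries. Without that library 46 genes met the thresholds, and without the labelled library 2, which left out 11 genes, 49 did.

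**Figure D2:**
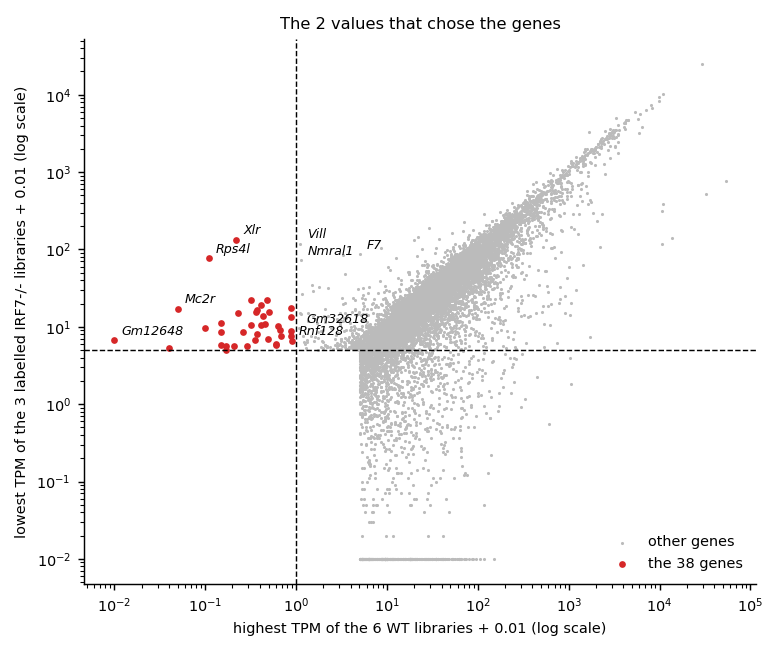
Lowest level in the 3 labelled libraries (vertical) against the highest level in the 6 WT libraries (horizontal), both TPM + 0.01 on log axes, for genes that reach 5 TPM on either axis. Dashed lines mark 5 and 1 TPM, and the 38 genes (red) fill the upper left corner, with Vill (119 and 1.09 TPM) and Nmral1 (73.1 and 1.12 TPM) just to the right of the line.

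Among nuclear proteins, Xlr stood far above the rest. It encodes a nuclear protein of the X-linked lymphocyte-regulated family, relatives of the synaptonemal complex protein SYCP3, and lies at chrX:53777118-53797706 (minus strand, ENSMUSG00000054626). It had 153, 134 and 156 TPM in the labelled libraries. In WT it had 0.21 TPM in WT c-kit- library 2, 0.07 TPM in WT c-kit+ library 1 and was listed at 0 in the other 4. Of its 50-base words, 16% also occur in transcripts of other genes, most in the pseudogene Gm14599, which was listed at 0 throughout.

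The family of Xlr was mostly silent. Of the 13 Xlr family genes listed, 8 were at 0 in all 9 libraries, and 3 were tested and called higher. Xlr4b had 26.7, 32.7 and 28.5 TPM in the labelled libraries against 1.16, 0.18 and 0.8 TPM in WT c-kit+ (log2 fold change 4.18, standard error 0.23, limma adjusted p = 5.91e-05). Xlr4c had 20.8, 17.0 and 24.9 TPM against 2.08, 0.08 and 0.15 TPM (3.79, standard error 0.41, limma adjusted p = 0.000687). Xlr4b missed the 38 through 1 WT library of more than 1 TPM and Xlr4c through 2. Near-identical copies of these genes can exchange reads, so the split among them is uncertain.

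Tceal8, of an X-linked family of small proteins related to transcription elongation factor A, had 16.4, 19.5 and 19.99 TPM in the labelled libraries (chrX:136168984-136172342, minus strand, ENSMUSG00000051579). It was listed at 0 in 4 WT libraries and had 0.36 TPM in WT c-kit+ library 3. Its relative Tceal9 had a mean of 33.2 TPM in WT c-kit+ and 55.1 TPM in the labelled libraries, and was not called (log2 fold change 0.72). H2afy2 encodes macroH2A2, a histone variant of silent chromatin. It had 9.7, 8.1 and 9.43 TPM in the labelled libraries and at most 0.36 TPM in WT. The gene of the other macroH2A, H2afy, had 534 TPM in WT c-kit+ and 586 TPM in the labelled libraries and was not called (0.14, standard error 0.10). Zfp951, a zinc finger gene, had 5.65, 7.91 and 6.88 TPM and was one of the 9 that were lowest in library 1.

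Hnf4a encodes a nuclear receptor that directs the liver, gut and kidney programs. It had 6.03, 5.06 and 8.84 TPM in the labelled libraries and at most 0.16 TPM in WT. The other liver factors read beside it were at or near 0. Hnf4g and Onecut1 were at 0 in all 9 libraries, and Foxa1, Foxa2 and Foxa3 did not exceed 0.11 TPM. Of 11 hepatocyte genes in the table, 9 were under 1 TPM in all 9 libraries. Alb, which encodes serum albumin, and Apob were listed at 0 in all 9, the labelled libraries included.

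Among genes of RNA metabolism and translation, Rps4l was the highest. It is an intronless relative of the ribosomal protein gene Rps4x, annotated as a transcribed processed pseudogene at chr6:148354656-148355598 (plus strand, ENSMUSG00000063171). It lies inside Tmtc1 on the other strand. Rps4l had 100.5, 76.97 and 95.6 TPM in the labelled libraries and at most 0.1 TPM in WT. Tmtc1 had at most 0.21 TPM in any library. Of the 50-base words of Rps4l, 14.9% occur in another annotated transcript, that of Rps4l-ps, which was listed at 0 in all 9. Rps4x had a mean of 2078 TPM in WT c-kit+ and 2504 TPM in the labelled libraries (log2 fold change 0.27, limma adjusted p = 0.0424, not called). The parent gene was thus abundant in all groups while Rps4l was near 0 in WT.

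Tdrkh encodes a Tudor and KH domain protein of mitochondria that is needed to trim piRNAs, the small RNAs that silence transposons in male germ cells. It had 16.3, 13.5 and 15.3 TPM in the labelled libraries and between 0.05 and 0.88 TPM in WT (chr3:94413273-94434668, plus strand, ENSMUSG00000041912). Its exons overlap those of Oaz3, which shares 34.7% of its 50-base words and had at most 0.79 TPM. The other 11 genes of the piRNA pathway list did not accompany it. Of those 11 only 2 had enough level to be tested, and neither was called higher. In all 9 libraries 5 were listed at 0, and Pnldc1, the trimming enzyme, had 1.25, 0.06 and 0.15 TPM in the labelled libraries. Tdrd9, a helicase of the same pathway, was lower in the labelled libraries, with 0.23, 0.07 and 0.05 TPM against 5.65, 4.42 and 2.74 TPM in WT c-kit+ (log2 fold change -2.20, standard error 0.23, limma adjusted p = 0.000625). In a list of 20 germline genes 18 were under 1 TPM in all 9 libraries.

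Pcbp3 encodes a poly(C)-binding protein and had 14.2, 10.6 and 14.6 TPM in the labelled libraries. Its relatives Pcbp1 and Pcbp2 had means of 295 and 650 TPM in WT c-kit+ and were not called, and Pcbp4 was called higher, from 1.41 to 4.6 TPM (log2 fold change 1.19, standard error 0.23, limma adjusted p = 0.00582). Gspt2 encodes eRF3b, an intronless X-linked relative of the translation termination factor gene Gspt1. It had 7.56, 6.89 and 7.43 TPM and between 0.1 and 0.48 TPM in WT. Gspt1 had means of 66.7 TPM in WT c-kit+ and 99.5 TPM in the labelled libraries (0.57, standard error 0.07, limma adjusted p = 0.00138), below the fold required for a call.

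Genes of cell shape formed a small group. Rhoj encodes a small GTPase of the Cdc42 subfamily known from endothelium. It had 25.3, 17.6 and 28.2 TPM in the labelled libraries and 0.55 to 0.87 TPM in WT c-kit+ (chr12:75308322-75401456, plus strand, ENSMUSG00000046768). Of its subfamily, Cdc42, Rhoq and Rhou were tested and not called, with means of 355, 8.3 and 18.8 TPM in the labelled libraries. Arhgef38, which encodes a guanine nucleotide exchange factor for such GTPases, had 14.5, 11.3 and 17.0 TPM and at most 0.14 TPM in WT.

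The matrix and adhesion genes included 2 chains of collagen VI. Col6a3 encodes the long chain that joins the COL6A1 and COL6A2 chains in the collagen VI trimer of connective tissue, and Col6a4 encodes a relative that can take its place. Col6a3 had 24.4, 15.2 and 18.5 TPM in the labelled libraries and at most 0.22 TPM in WT (chr1:90765923-90843971, minus strand, ENSMUSG00000048126). Col6a4 had 8.91, 5.88 and 8.61 TPM and at most 0.14 TPM in WT. Both had their lowest value in library 2. The partner chains of the trimer were under 1 TPM in every library. Col6a1 and Col6a2 had means of 0.0633 and 0.0233 TPM in the labelled libraries, and Col6a5 and Col6a6 were also under 1 TPM in all 9. Sdk1, with 13.1, 10.9 and 13.7 TPM, spans chr5:141241490-142215586, and its relative Sdk2 did not exceed 0.02 TPM.

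Among receptors, Mc2r was the highest. It encodes the receptor for the pituitary hormone ACTH, which is known from the adrenal cortex and from fat cells and reaches the cell surface only with the accessory protein MRAP. Mc2r had 17.2, 21.5 and 22.03 TPM in the labelled libraries and was listed at 0 in 5 of the 6 WT libraries, with 0.04 TPM in WT c-kit+ library 2 (chr18:68406907-68429320, minus strand, ENSMUSG00000045569). Mrap, which the thresholds did not choose, had a mean of 5.05 ± 0.488 TPM (SD, n = 3) in the labelled libraries. It had 0.93, 1.92 and 0.52 TPM in WT c-kit+ and was called higher (log2 fold change 1.56, standard error 0.24, limma adjusted p = 0.00267). In WT c-kit-, where Mc2r was at 0, Mrap had 4.49, 6.48 and 2.81 TPM. The steroid-making genes of the pathway were low throughout or not called. Nr5a1 was at 0 and Cyp11a1 at a mean of 0.0633 TPM in the labelled libraries, and Star had 1.96 TPM in WT c-kit+ and 1.92 TPM in the labelled libraries (-0.02, standard error 0.12, limma adjusted p = 0.906).

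Gdf3, a TGF-beta family ligand of pluripotent cells, had 6.04, 5.31 and 8.63 TPM in the labelled libraries and at most 0.03 TPM in WT. Of the 6 other pluripotency genes listed, including Nanog, Pou5f1 and Sox2, all were under 1 TPM in all 9 libraries. Rgs5, a brake on G protein signaling known from pericytes, had 10.5, 11.1 and 10.6 TPM, the smallest spread of the 38 with a coefficient of variation of 3.19%. Pla2r1, which encodes a phospholipase A2 receptor, had 6.22, 5.6 and 7.96 TPM.

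Rhoj and Rgs5 are genes of vessels, so markers of other cells were read beside them. Among 11 endothelial and stromal markers, 6 were under 1 TPM in all 9 libraries. Cdh5, the VE-cadherin gene, had at most 0.24 TPM in any library. The summed level of the list was 141 to 169 TPM in the labelled libraries, 61.5 to 72.2 TPM in WT c-kit+ and 131 to 162 TPM in WT c-kit-. Of 4 genes tested, Pdgfrb, a receptor of pericytes, was called higher, with 12.1, 15.9 and 12.7 TPM against 0.68, 1.46 and 1.57 TPM (log2 fold change 2.72, standard error 0.20, limma adjusted p = 0.000166), and so was Pecam1 (1.21, standard error 0.09, limma adjusted p = 0.00021). Pecam1 is also expressed by myeloid cells. It had 83.7 to 99.2 TPM in WT c-kit-, which overlaps its 92.1 to 106 TPM in the labelled libraries. Pdgfrb had at most 2.87 TPM in WT c-kit-. The cells were sorted as leukemia cells, which carry GFP, and the part of host vessel cells in these levels was not tested.

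Of the mast cell and basophil list of 10 genes, 6 were tested and 1 was called higher, Hdc, the histidine decarboxylase gene, at 179, 105 and 173 TPM in the labelled libraries. Without Hdc the list summed to 82.1 to 104 TPM there and 47.3 to 98.4 TPM in WT c-kit+. Of the eosinophil list of 7 genes, 3 were tested and 1 was called higher, Siglecf. Without it the list summed to 7.64 to 22.2 TPM and 6.7 to 13.9 TPM. Both ranges overlap between the c-kit+ groups. In WT c-kit- the mast cell and basophil list without Hdc summed to 37.5 to 64.2 TPM, below the labelled range. The eosinophil list without Siglecf summed to 6.87 to 16.7 TPM there, which overlaps the labelled range. No gene of either list is among the 38.

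Enzymes were the most numerous, with 8 genes. Aspa encodes aspartoacylase, which splits N-acetylaspartate in oligodendrocytes and kidney. It had 19.3, 20.7 and 19.8 TPM in the labelled libraries and 0.09 to 0.4 TPM in WT (chr11:73304992-73329596, minus strand, ENSMUSG00000020774). Gal3st1 encodes the sulfotransferase that makes the myelin lipid sulfatide, and had 17.7, 15.6 and 18.9 TPM (chr11:3983636-3999326, plus strand, ENSMUSG00000049721). It was also one of 2 genes, with Col6a4, for which every WT c-kit+ library was below every WT c-kit- library, at 0.14 to 0.21 TPM and 0.28 to 0.5 TPM. That order was found in 5.8% of the 10981 genes that were above 0 in some WT library and under 1 TPM in each. Cyp2a5, the coumarin 7-hydroxylase of liver, had 13.7, 14.2 and 15.3 TPM. It shares 37% of its 50-base words with other genes, most with Cyp2a4, which was listed at 0 in the labelled libraries.

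Akr1e1, an aldo-keto reductase gene, had 10.3, 10.1 and 9.61 TPM and at most 0.09 TPM in WT. Glb1l2, which is related to lysosomal beta-galactosidase, had 10.95, 9.08 and 12.6 TPM, and Glb1 itself was not called (log2 fold change 0.63). B3galt5, a galactosyltransferase known from the gut, had 10.03, 9.26 and 8.93 TPM and up to 0.88 TPM in WT c-kit+. Aldh1a7 had 8.91, 5.63 and 9.34 TPM, and its close relative Aldh1a1, a retinaldehyde dehydrogenase gene, had at most 0.21 TPM in the labelled libraries and 1.46 TPM in WT c-kit+ library 2. Galntl6, related to enzymes that start mucin-type sugar chains, had 7.71, 5.85 and 7.98 TPM.

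Of genes of membrane traffic and transport, Sec16b was the highest. It encodes a protein of endoplasmic reticulum exit sites that is known from liver and gut, and had 27.4, 22.4 and 30.1 TPM (chr1:157506728-157568425, plus strand, ENSMUSG00000026589). It had 0.27 to 0.47 TPM in WT c-kit+ and 0.03 to 0.22 TPM in WT c-kit-, which did not overlap. Its widely used relative Sec16a had 36.8 TPM in WT c-kit+ and 38.2 TPM in the labelled libraries (log2 fold change 0.05, standard error 0.06, limma adjusted p = 0.499). Tmem9, a membrane protein of endosomes and lysosomes, had 8.7, 8.45 and 9.55 TPM. Slc22a3, the organic cation transporter OCT3, had 7.54, 6.05 and 8.42 TPM.

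Serpina11, a liver serpin gene, had 14.7, 7.53 and 13.8 TPM and was listed at 0 in all 3 WT c-kit- libraries. Rnf128 encodes GRAIL, an E3 ubiquitin ligase of anergic T cells, and had 9.46, 6.6 and 10.2 TPM.

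The 6 transcripts of unknown role had means of 7.44 to 28.4 TPM. The highest, 2810025M15Rik, had 37.3, 25.5 and 22.5 TPM in the labelled libraries and at most 0.31 TPM in WT (chr1:157412352-157420236, plus strand, ENSMUSG00000049881). It shares 13.4% of its 50-base words with Rasal2, which had a mean of 0.98 TPM in the labelled libraries. Gm12648 was the only one of the 38 listed at 0 in all 6 WT libraries, and had 6.66, 7.15 and 8.5 TPM in the labelled ones. Gm35189 had the widest spread, with 16.5, 7.61 and 18.8 TPM and a coefficient of variation of 41.3%. Platr27, AU017674 and Snhg11, the last a host gene of small nucleolar RNAs, had means of 11.7, 8.96 and 8.43 TPM.

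**Figure D3:**
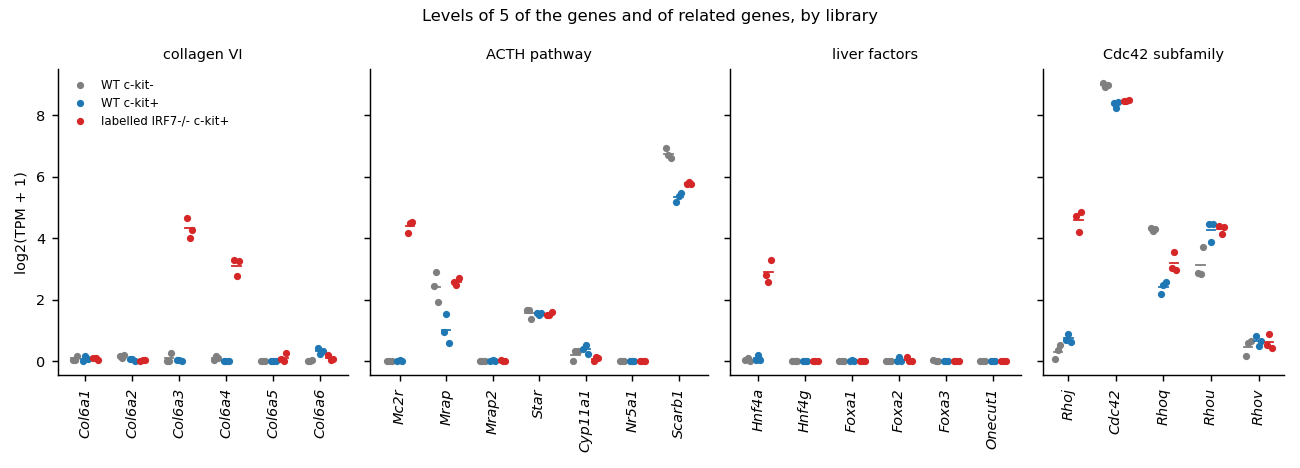
Level in each library, as log2(TPM + 1), of 5 of the 38 genes (Col6a3, Col6a4, Mc2r, Hnf4a and Rhoj) and of related genes, with 3 points per group and a short line at the group mean. Col6a1 and Col6a2 stay near 0 while Col6a3 and Col6a4 are up, Mrap is above WT c-kit+ with a mean of 5.05 TPM in the labelled libraries, the other liver factors stay near 0, and Cdc42 is high in all groups.

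Levels also varied among the labelled libraries. The coefficient of variation over the 3 labelled libraries had a median of 15.4% for the 38 genes and 6.7% for the 9580 other genes of at least 5 TPM in each of them. Among genes with a mean under 20 TPM it was 16.2% for 32 of the 38 and 8.71% for 3333 others. Library 2 had the lowest value for 26 genes (68.4%), against 34.9% of the other genes, and library 3 the highest for 24. Library 1 was the lowest for 9 genes. Interferon-stimulated genes had another order, with a summed level of 403 to 1491 TPM over the labelled libraries that was highest in library 1, as Irf7 was. In that list 12 of 17 tested genes were called higher against WT c-kit+, beside 6.30% of all genes tested. None of them is among the 38. The list summed to 226 to 232 TPM in WT c-kit+. In WT c-kit- it summed to 414 to 521 TPM, which overlaps the labelled range.

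Residual levels in WT cells were low but not always at 0. Of the 228 WT values of the 38 genes, 57 (25%) were listed at 0. The mean was higher in WT c-kit+ than in WT c-kit- for 26 genes and lower for 10. The same split was not counted over other genes of low WT level. For 7 genes, Sec16b, Rhoj, Gm35189, Serpina11, Glb1l2, B3galt5 and Rnf128, every WT c-kit+ library was above every WT c-kit- library. The same was true of 5.34% of those 10981 genes of low WT level. The 38 and those 10981 genes both include genes listed at 0 in a WT c-kit+ library, which cannot have this order. How many each set holds was not counted, so the shares are not taken as a like comparison. Rhoj, for example, had 0.64, 0.87 and 0.55 TPM in WT c-kit+ and 0.05, 0.29 and 0.45 TPM in WT c-kit-.

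The 38 genes were spread over 18 chromosomes, by GENCODE release M21 on GRCm38. Chromosome 1 held 5, chromosome 2 and the X chromosome 4 each, and chromosome 12 held 3, while chromosomes 14 and 15 held none. The X chromosome held 10.5% of them and 2.91% of all genes of at least 5 TPM in the labelled libraries. Xist, which marks an inactive X chromosome, was at 237 to 413 TPM in all 9 libraries, and the 4 Y-linked genes listed were under 1 TPM in all 9. Only Cyp2a5 shared chromosome 7 with Irf7, at a distance of 114 Mb. Of the 38, 32 (84.2%) are annotated as protein coding, against 94.3% of genes of at least 5 TPM, 4 as long intergenic RNAs and 2 as transcribed processed pseudogenes. The pair 2810025M15Rik and Sec16b lay 86.5 kb apart, and Platr27 and Snhg11 778 kb apart.

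Genes next to the 38 were not used in choosing them and were read in the same fit. Within 100 kb lay 279 other annotated genes, of which 60 could be tested. Of those, 13 (21.7%) were called higher against WT c-kit+ and 1 was called lower, beside 6.30% higher and 11.7% in either direction among all genes tested. Their median log2 fold change was 0.40, against 0.12 for all. The share called higher was 10.2% (46 of 450) at 100 kb to 1 Mb and 5.81% (737 of 12690) beyond. Neighbors of the same gene are not independent of each other, and no test was made of the difference in shares. With no filter on low values 15 of 152 neighbors (9.87%) were called higher, beside 3.17% of all genes.

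The largest difference was at Sec16b. Cryzl2, 14.1 kb away on the same strand, had 36.2, 32.7 and 37.0 TPM in the labelled libraries against 1.77, 1.54 and 1.37 TPM in WT c-kit+ (log2 fold change 3.83, standard error 0.10, limma adjusted p = 6.13e-06). Together with 2810025M15Rik, 3 genes of this stretch of chromosome 1 were therefore high in the labelled libraries. Mlph, which encodes the melanosome transport protein melanophilin, lies 71.1 kb from Col6a3 and had 7.05, 4.06 and 6.83 TPM against at most 0.09 TPM (2.68, standard error 0.21, limma adjusted p = 0.000202).

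On the X chromosome, 5 neighbors were called higher in addition to 4 of the 38 genes. The gene 4930502E18Rik, 38.7 kb from Xlr, had 5.11, 4.5 and 4.74 TPM and was listed at 0 in all 6 WT libraries. It fell short of the 38 through values just under 5 TPM. Gm39526 and Zxdb, both within 100 kb of Gspt2, had log2 fold changes of 2.53 and 2.21 (limma adjusted p = 0.000337 and 0.000207). D330045A20Rik, 8.73 kb from Rnf128, had 1.96, 1.78 and 1.44 TPM and was listed at 0 in WT c-kit+. Bex3, 97.9 kb from Tceal8, went from 31.4 TPM in WT c-kit+ to 83.9 TPM (1.40, standard error 0.13), with 52.4 TPM in WT c-kit-.

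The other 6 were Gm8459 and Apobec1 near Gdf3 (log2 fold changes 1.30 and 1.22), Mtfp1 near Gal3st1 (1.20), Aifm2 (1.15), Gm1110 near Glb1l2 (1.05) and Ppa2 near Arhgef38 (1.03). The last pair was no longer called after quantile normalization, at 0.99 and 0.95. These calls are against WT c-kit+ only. Apobec1 had a mean of 87.8 TPM in WT c-kit-, above its 49.6 TPM in the labelled libraries. Gm8459 and Aifm2 had 1.04 and 12.8 TPM in WT c-kit-, below their 2.12 and 18.8 TPM in the labelled libraries. Aifm2 overlaps H2afy2 on the other strand, and the kit named in the labels does not mark strand, so reads of the overlapping exons cannot be told apart. Kif21b, 96 kb from Tmem9, was the one called lower (-1.13, standard error 0.14).

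**Figure D4:**
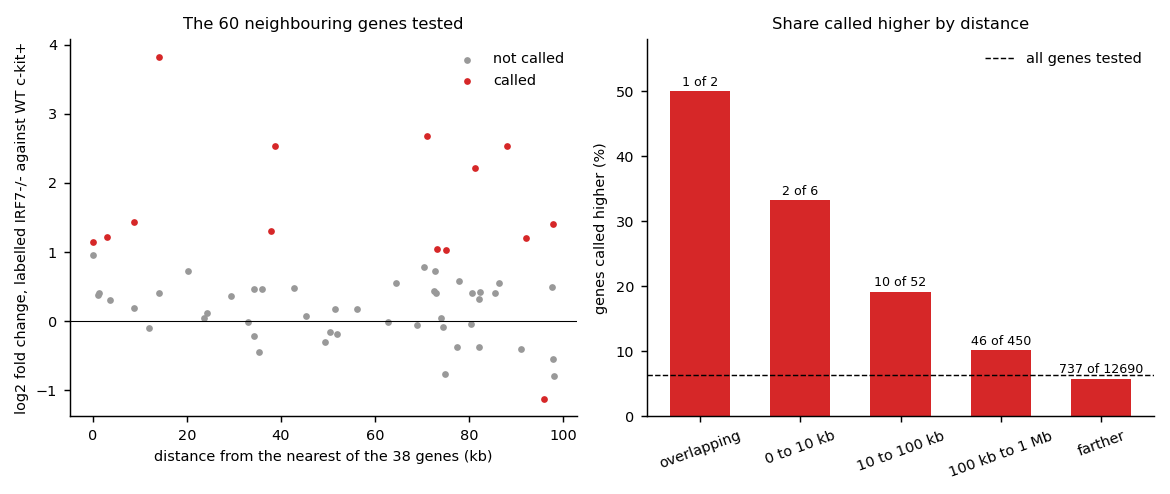
Left, log2 fold change between the c-kit+ groups (vertical) against the distance in kb from the nearest of the 38 genes, for the 60 neighbors tested (red, called in either direction). Right, percent of tested genes called higher by distance, with the number called over the number tested above each bar and all genes as a dashed line at 6.30%. The share is 19.2% at 10 to 100 kb and 5.81% beyond 1 Mb or on another chromosome, and the first 2 bars rest on 2 and 6 genes.

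The promoters of these genes held fewer CpG than those of most genes active in the same cells. RefSeq promoters were found for 27 of the 38 genes, 39 promoters in all. They had a median of 6 CpG in 300 bases, with 1 in Aldh1a7 and 54 in Sdk1, as in the sequences above. The 9484 promoters of other genes of at least 5 TPM in the labelled libraries had a median of 21 CpG, and the 12275 promoters of genes under 1 TPM in all 9 libraries had 4. A count of 5 CpG or fewer was found in 43.6% of the promoters of the 38 (17 of 39), 10.7% of the other active promoters, 58.4% of those of genes under 1 TPM, and 43.6% of all 32851 promoters. Among other genes called higher in the labelled libraries against WT c-kit+ the share was 27.7% of 700 promoters, with a median of 11 CpG. Promoters of 1 gene can overlap, so these are descriptions with no test.

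**Figure D5:**
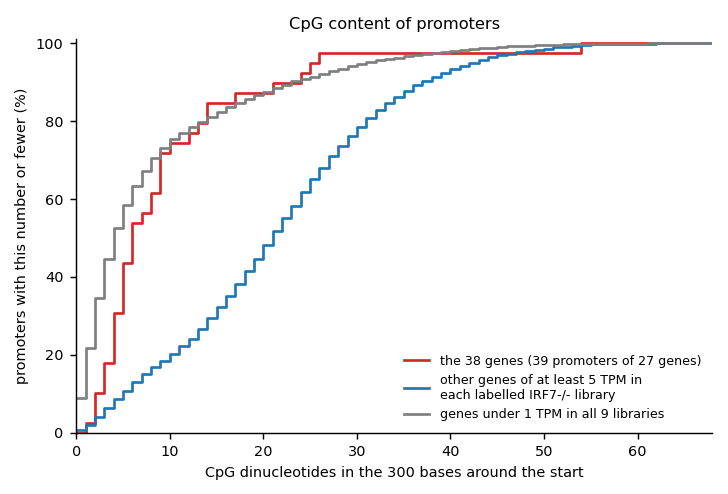
Percent of promoters (vertical) with a given number of CpG dinucleotides or fewer in the 300 bases around the start (horizontal). Red shows 39 promoters of 27 of the 38 genes. Blue shows other genes of at least 5 TPM in the labelled libraries, and gray genes under 1 TPM in all 9 libraries. At 3 CpG or fewer red (17.9%) lies between blue (6.35%) and gray (44.5%). By 10 CpG red is near gray (74.4% and 75.3%, against 20.2% in blue).

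Short motifs were counted in the same windows on both strands. The interferon regulatory factor motif GAAANNGAA was found in 1 of the 39 promoters (2.56%), that of Col6a4, and in 8.56% of all promoters. TATAAA was found in 8 (20.5%), including the Cyp2a5 and Aldh1a7 promoters printed above, and in 13.6% of all. The ETS motif GAGGAAGT was found in those of Cyp2a5 and Galntl6 (5.13%, against 3.2% of all), the HNF4 motif CAAAGTCCA in 1 promoter of Sec16b (2.56%, against 0.475%), and the cyclic AMP response motif TGACGTCA in none, against 1.79%. A match is only a run of letters in this window and is no evidence that a factor binds there.

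Reads from near-identical genes could move single values. Exons of 10 of the 38 genes overlap those of another gene. Transcripts of other genes together held more than 10% of the 50-base words of 7 genes, and 18 shared none. The 7 were Cyp2a5, Serpina11, Tdrkh, Xlr, H2afy2, Rps4l and 2810025M15Rik, and of the single genes that share the most with each only Aifm2 exceeded 2 TPM in any library. The further genes that share words with Xlr, H2afy2, Cyp2a5 and Tdrkh were not read one by one.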

How the data were processed

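Bulk RNA was profiled in 9 libraries of sorted leukemia cells, 3 in each of 3 groups taken from the sample labels, which name RNA-seq and the Illumina TruSeq RNA kit v2, whereas the paper's text calls this assay a microarray. A single table was deposited, with TPM for 55536 genes, so alignment, counting and scaling to length and library total were the authors' work. Aligner, build and use of strand are not given in the sources used here. No header names the unit, which was read from the near-constant sum of each library. A TPM value also moves with abundant genes elsewhere in the library, and since depth is lost, the spread of 3 libraries is the sole measure of precision. The WT c-kit+ replicate 3 column carries an extra digit in its name and matches no other sample.

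All 55536 identifiers matched GENCODE M21 (GRCm38), which gave coordinates, gene types, neighbors within 100 kb and 50-base words shared between transcripts. Promoters came from RefSeq (GRCm38.p6). A promoter is missing from the tables used here for 11 of the 38 genes, and sequence of genes on some chromosomes is not printed.

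Groups were compared in pairs, 6 libraries to a fit, with limma 3.58.1 in R 4.3.3 (lmFit, eBayes with trend) on log2(TPM + 1). Genes needed 1 TPM or more in any 3 of the 6, and p-values were adjusted over all genes tested. A fold change on this scale understates that of low genes. The function was tested on simulated data. Tables and plots were made with pandas 2.3.3 and matplotlib 3.10.9 in Python 3.11.15.

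The 38 genes, the gene lists and the thresholds were chosen with earlier results of these data known, and the partner genes after the names of the 38 were known. One of the 38 genes and a few related genes are not reported here by name. Named were the others of the 12 genes with the highest mean, other genes of textbook role, those nearest each threshold, neighbors that were called, and up to 4 called genes per list. Cdh5, Alb, Apob, related genes and overlapping genes were named after their values were seen. Alternatives were other thresholds, filters, pseudocounts and distances, quantile normalization, 1 fit of all 9 libraries, the replicate number as a block, and each library left out.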

Additional observations from a re-analysis of the deposited data

How the results depend on the processing

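All 38 genes were called higher between the c-kit+ groups under each of the 12 alternatives to the fit. The choice of genes by level fixed these calls, so they are no measure of robustness. Of all genes tested, 3.17% to 8.05% were called higher in these settings. The median difference of the 38 stayed between 3.25 and 3.37 except with a pseudocount of 0.1 (5.55). The number of genes found moved with the thresholds. It was 110 at 2 TPM or more in the labelled libraries, 18 at 10 TPM or more, 27 at under 0.5 TPM in WT and 1 when listed at 0 in all WT libraries, and 38 to 49 with any 1 library left out. All genes called between the c-kit+ groups fell from 1548 to 1015 with a filter of 5 TPM. Called neighbors went from 14 to 9 with that filter, to 3 within 10 kb and to 80 within 1 Mb, by fewer or more genes tested.

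Same-numbered libraries of the c-kit+ groups deviated from their group means with correlations of 0.085, 0.097 and 0.019, so the numbers were not taken as pairs. Even so, 5 of 6 libraries correlated best with their own number. Between the labelled and WT c-kit- libraries the correlations were 0.053, 0.079 and 0.045, and 6 of 6 did so. Between the WT groups they were -0.071, 0.237 and 0.052, and 2 of 6 did so. With the replicate number as a block, 1549 genes were called, with 14 neighbors and 33 genes of the lists (34 without it). Against WT c-kit- the block gave 2749 genes (2738 without it) and between the WT groups 1950 (1916 without it). Depth is unknown, so a listed value of 0 cannot be given a limit.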

Other observations

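Without WT c-kit- replicate 1, 8 genes joined, which had 1.09 to 1.48 TPM in it and means of 5.94 to 132 TPM in the labelled libraries. They were Abcg2, Akr1c13, Nmral1, Plekhg4, Slc18a1, Spink2, Vill and Zcchc3. Without the labelled library 2, 11 joined, among them Mlph, the neighbor of Col6a3, at 4.06 TPM in that library, and Gm14539, which was listed at 0 there with a mean of 40.3 TPM over the 3.

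Other gene lists gave counts between the c-kit+ groups, with none of the 38 among them. Of 8 villin and gelsolin family genes, 6 were tested. Vill and Scin were called higher, and Gsn and Capg lower (log2 fold changes -2.44 and -1.51). Of 10 coagulation genes tested, 3 were called higher, F7 (130, 86.3 and 131 TPM in the labelled libraries), Tfpi and F10, and none lower. F10 had 191 to 229 TPM in WT c-kit-, which overlaps its 219 to 279 TPM in the labelled libraries. F7 and Tfpi had at most 5 and 5.96 TPM in WT c-kit-. Of 9 macrophage markers tested, only Vcam1 was called, at 106, 76.9 and 107 TPM in the labelled libraries, against 9.2, 7.42 and 12.7 TPM for WT c-kit+. Of 5 dendritic cell markers tested, Tcf4 and Bst2 were called higher and Cd209a lower against WT c-kit+. In WT c-kit- Tcf4 had a mean of 85 TPM, above its 70.9 TPM in the labelled libraries. Bst2 had 81.1 TPM there, below its 188 TPM in the labelled libraries. None of 4 erythroid and 4 megakaryocyte markers tested was called, and Rag2 and Lck were the called genes of the B cell and of the T and NK cell lists, at means of 1.63 and 2.6 TPM. Of 12 myeloid leukemia markers, Ctsg was called higher and Ly6g lower. Of the germline genes, Stag3 was called higher, from 45.2 to 106 TPM.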
